A study of Mus musculus with 8 samples.

Results

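Collagens are the triple-helical proteins of the extracellular matrix. Here they are the 43 of 55223 gene loci whose name has the form Col, a number, a and a number, a choice made by name and not by level. Each collagen molecule is built from 3 chains that are hydroxylated and folded in the endoplasmic reticulum, secreted, trimmed and crosslinked outside the cell. In skeletal muscle, types I and III form the interstitial fibrils, type IV forms the network of the basement membrane that covers each fibre and its stem cells, and type VI links the basement membrane to the interstitium. Type V collagen nucleates fibrils and is, in mouse muscle, a known signal that keeps stem cells quiescent.

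The cells were muscle stem cells (satellite cells) from wild-type female mice of strain C57BL/6J, 6 to 8 weeks old. All cultures had 2 days on Matrigel, itself a basement membrane extract, and then 6 h without serum with 200 ng/ml of the receptor trap BMPR-IA-Fc, which binds bone morphogenetic proteins (BMPs). The groups of 2 libraries each were BMP6 (1 h of 100 ng/ml BMP6), its vehicle (vehicle_b), BMP4 (1 h of 100 ng/ml BMP4) and its vehicle (vehicle_a). The vehicle was 4 mM HCl with 0.1% BSA in both. BMP6 and vehicle_b came from cell isolations 75 and 77, and BMP4 and vehicle_a from isolations 48 and 54, so each isolation gave 1 stimulated and 1 vehicle library. The labels do not say how many mice an isolation pooled, and n = 2 isolations limits every comparison. The vehicle groups had the same labelled treatment but came from different experiments. Experiment and isolation therefore cannot be told apart between them.

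Levels are TPM, a share of the transcripts of each library that allows for transcript length. Estimated depth was 48012828 to 58002740 reads per library, and the test was run on the 16908 loci that averaged 0.5 TPM or more. Of the 43 collagen genes 25 were tested. Of the other 18, Col9a1, Col9a2 and Col6a4 were listed at 0 in every library and 15 averaged less than that. Closest to that limit were Col28a1 (0.569 TPM) inside it and Col2a1 (0.483 TPM) outside. Col20a1 has no row of its own name. The stem cell label was checked against 13 markers, of which 12 were tested. Pax7 lay between 11.1 and 16.9 TPM and Myod1 between 422 and 839 TPM over the 8 libraries, while Calcr, a marker of quiescent stem cells, did not exceed 0.279 TPM. Between the vehicle groups 3 of these markers were called higher in vehicle_b and 4 lower, beside 5.71% and 11.3% of all loci. Of the 3 called higher, Cd34 had 12.4 and 15.6 TPM in vehicle_b, against 1.91 and 0.318 TPM in vehicle_a. Sdc4 had 55.2 and 68.2 TPM in vehicle_b, against 8.65 and 4.69 TPM in vehicle_a. Of the 4 called lower, Cdh15 had 43.1 and 45.4 TPM in vehicle_b, against 185 and 236 TPM in vehicle_a. Fgfr4 had 32.0 and 26.2 TPM in vehicle_b, against 166 and 170 TPM in vehicle_a.

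Of the 25 tested genes 12 had a mean of at least 10 TPM, 8 of 1 to 10 TPM and 5 of 0.5 to 1 TPM. The highest mean belonged to Col1a2 (163 TPM), the second chain of type I collagen, and the next to Col5a2 (110 TPM), Col5a1 (53.9 TPM) and Col3a1 (44.0 TPM). All of these are chains of fibril-forming collagens. Col6a1 (30.8 TPM), Col5a3 (27.8 TPM), Col4a1 (20.7 TPM), Col1a1 (20.1 TPM), Col18a1 (15.5 TPM), Col6a2 (13.1 TPM), Col6a3 (12.7 TPM) and Col4a2 (12.6 TPM) completed the genes above 10 TPM. Such means hide large differences between the experiments, as the plot of levels by library shows.

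**Figure D1:**
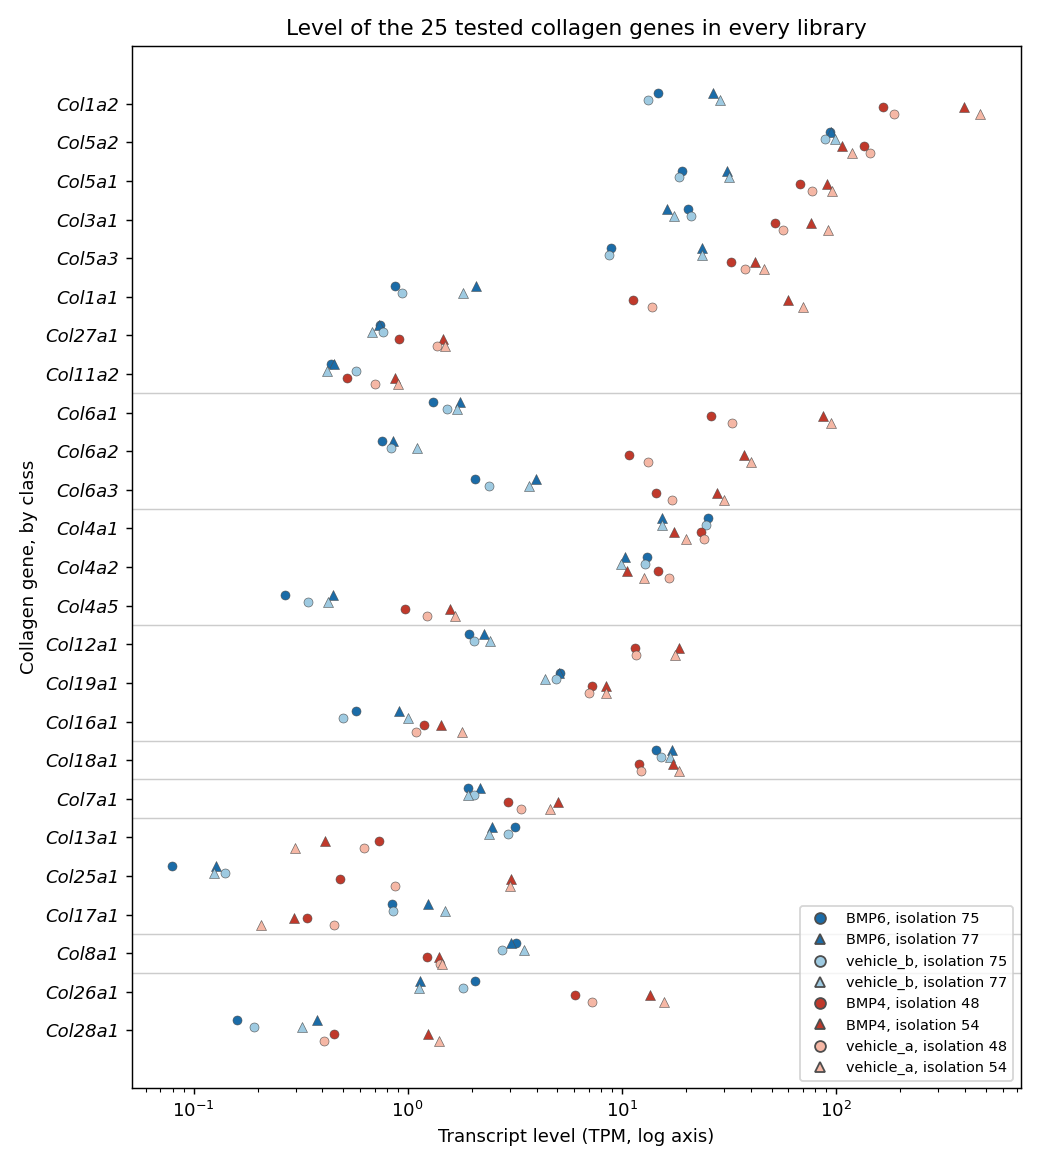
Level (TPM, log axis) of each tested collagen gene in each of the 8 libraries, 1 point per library, with genes grouped by collagen class and colours for the groups. The points of BMP6 and vehicle_b lie far left of those of BMP4 and vehicle_a for Col1a1, Col1a2, Col6a1 and Col6a2, and among them for Col4a1 and Col18a1.

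Promoter sequences are shown for genes that moved together or share a start region. They are RefSeq windows of 300 bases on GRCm38.p6, a build other than that of the measurements, and 34 of the 43 genes had one. Col4a1 and Col4a2, the chains of the main type IV collagen, start head to head on opposite strands, and their windows share 78 bases (chr8:11312777-11312854), written in capitals.
Col4a1 (chr8:11312777-11313076, minus strand): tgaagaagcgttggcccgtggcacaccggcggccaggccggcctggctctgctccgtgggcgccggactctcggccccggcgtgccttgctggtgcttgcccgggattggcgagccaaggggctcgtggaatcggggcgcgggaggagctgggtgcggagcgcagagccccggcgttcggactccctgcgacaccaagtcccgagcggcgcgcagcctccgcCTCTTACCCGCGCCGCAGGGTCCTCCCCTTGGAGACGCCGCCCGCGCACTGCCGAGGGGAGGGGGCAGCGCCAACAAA
Col4a2 (chr8:11312555-11312854, plus strand): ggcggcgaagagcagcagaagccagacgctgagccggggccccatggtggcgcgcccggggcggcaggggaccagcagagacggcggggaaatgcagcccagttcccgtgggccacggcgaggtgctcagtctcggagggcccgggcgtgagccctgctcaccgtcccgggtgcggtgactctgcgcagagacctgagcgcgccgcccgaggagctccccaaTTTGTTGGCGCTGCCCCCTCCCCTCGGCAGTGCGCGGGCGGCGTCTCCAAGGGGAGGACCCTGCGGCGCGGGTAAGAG
Among the tested genes, Col6a1 had the lowest vehicle_b level relative to vehicle_a of the type VI chains. Col1a2 had the lowest of the tested fibrillar chains with a window. Capitals mark matches, on either strand, to the CCAAT box, to the motif GGGCGG, to the motif TATAAA and to the E-box CANNTG.
Col6a1 (chr10:76725995-76726294, minus strand): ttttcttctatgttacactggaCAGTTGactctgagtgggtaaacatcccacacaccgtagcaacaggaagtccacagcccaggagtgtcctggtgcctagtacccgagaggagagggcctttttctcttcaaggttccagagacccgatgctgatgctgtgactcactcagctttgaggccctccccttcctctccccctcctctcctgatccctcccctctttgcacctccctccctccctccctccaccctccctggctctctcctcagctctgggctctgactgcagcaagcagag
Col1a2 (chr6:4505368-4505667, plus strand): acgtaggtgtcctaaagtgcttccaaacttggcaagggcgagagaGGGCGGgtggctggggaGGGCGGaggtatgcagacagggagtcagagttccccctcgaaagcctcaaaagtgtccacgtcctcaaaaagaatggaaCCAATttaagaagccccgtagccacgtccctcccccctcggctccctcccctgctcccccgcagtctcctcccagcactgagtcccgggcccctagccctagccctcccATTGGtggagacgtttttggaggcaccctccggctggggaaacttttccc
The Col1a2 window held 2 matches to CCAAT and 2 to GGGCGG, and the Col6a1 window held 1 match to CANNTG. Of 32544 distinct windows in the whole table, 37.4% held CCAAT, 35.9% GGGCGG, 13.6% TATAAA and 72.3% CANNTG. Of the 21 tested collagen genes with a window, 10, 14, 4 and 12 held these motifs in the same order. A match is a description of letters and not evidence of a bound factor.

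The vehicle groups were compared first, since they show the collagen state of the cells without a BMP pulse. Type I and type VI collagen transcripts were far lower in vehicle_b than in vehicle_a, the type IV chains Col4a1 and Col4a2 did not pass the test, and Col13a1 and Col8a1 were higher in vehicle_b. In all, 12 of the 25 tested collagen genes were called, 10 lower and 2 higher, by limma on log2(TPM + 0.5) over the 4 vehicle libraries with an adjusted p under 0.05 (Benjamini-Hochberg over all loci tested, two-sided). Over all loci 2879 of 16908 were called (17.0%), 11.3% lower and 5.71% higher. The median log2 change of the collagen genes was -0.85, against -0.01 over all loci tested. The split of calls over all loci depended on scaling: 965 were higher and 1914 lower as deposited, 1695 and 1555 after median centring, 1290 and 1612 after trimmed mean scaling and 1253 and 1658 with FPKM. Under each of these 3 scalings 2 collagen genes were called higher and 10 lower.

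With 1 library left out, the other group alone gives the spread, and the lone library is assumed to vary like it. Without vehicle_b replicate 1 or replicate 2 the spread is that between the vehicle_a isolations, which lay further apart (chi-square 216.4 per gene, against 34.2 for vehicle_b). In these fits limma called 0 collagen genes, beside 0 and 3 of all loci, and 15 and 13 of 25 had an unadjusted p under 0.05, as had 21.4% and 17.6% of all loci. Without vehicle_a replicate 1, 16 collagen genes were called, and without vehicle_a replicate 2, 10 were. All 12 called genes kept their sign in each of these 4 fits. For Col1a1, Col1a2, Col6a1 and Col6a2 the size moved most with the vehicle_a library left out. Without replicate 1 and without replicate 2 of vehicle_a the log2 change was -5.27 and -2.97 for Col1a1, -4.56 and -3.23 for Col1a2, -5.50 and -3.97 for Col6a1 and -4.78 and -3.23 for Col6a2. Col5a1 (-2.19 to -1.42) and Col8a1 (0.76 to 1.04) moved most with the vehicle_b library left out.

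Among the 8 tested fibrillar collagens 4 were called lower and 0 higher. Col1a1, on chromosome 11 (94827050 to 94843868, GRCm39), encodes the chain present in 2 copies in type I collagen. It had 0.946 and 1.82 TPM in vehicle_b isolations 75 and 77, against 13.8 and 70.2 TPM in vehicle_a isolations 48 and 54. The groups did not overlap, although the vehicle_a libraries differed 5.08-fold between themselves. Its log2 change was -4.12 (SE 0.77, adjusted p 0.0364 by limma).

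Col1a2 (chromosome 6, 4505493 to 4541544, GRCm39) had 13.2 and 28.6 TPM in vehicle_b and 187 and 471 TPM in vehicle_a, so that the mean in vehicle_b was 6.36% of that in vehicle_a. Its log2 change was -3.89 (SE 0.55, adjusted p 0.0266 by limma). Col3a1, the chain of type III collagen, had 21.0 and 17.5 TPM in vehicle_b and 56.7 and 91.9 TPM in vehicle_a. Neither gene overlapped between the groups.

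The type V chains were uneven. Col5a1 was called lower, with 18.4 and 31.8 TPM in vehicle_b and 76.9 and 96.0 TPM in vehicle_a (log2 -1.81, SE 0.29, adjusted p 0.0296 by limma). Col5a2 had 89.1 and 98.4 TPM in vehicle_b against 144 and 118 TPM in vehicle_a and did not pass (log2 -0.48, adjusted p 0.083 by limma). Col5a3 had 8.76 and 23.6 TPM in vehicle_b against 37.7 and 46.1 TPM in vehicle_a and did not pass either (log2 -1.5, adjusted p 0.0785 by limma). Its vehicle_b libraries differed 2.69-fold between isolations 77 and 75.

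All 3 tested type VI chains were called lower. Type VI collagen forms beaded filaments around the basement membrane and, in mouse muscle, is a known component of the stem cell niche. Col6a1 had 1.52 and 1.70 TPM in vehicle_b and 32.7 and 94.9 TPM in vehicle_a. At 2.53% of the vehicle_a mean, its vehicle_b mean was the lowest such share among the 25 tested genes (log2 -4.74, SE 0.50, adjusted p 0.0209 by limma). Col6a2, its neighbour on chromosome 10, had 0.840 and 1.11 TPM in vehicle_b and 13.3 and 39.9 TPM in vehicle_a (log2 -4.01). Col6a3, the longest chain, had 2.41 and 3.70 TPM in vehicle_b and 17.2 and 30.0 TPM in vehicle_a (log2 -2.73). The summed TPM of the type VI genes in vehicle_b was 4.98% of that in vehicle_a.

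The main basement membrane chains differed little between the groups. Col4a1 (chromosome 8, 11248423 to 11362826, GRCm39) had 24.6 and 15.4 TPM in vehicle_b, against 24.2 and 19.9 TPM in vehicle_a. Col4a2 had 12.8 and 9.87 TPM in vehicle_b and 16.5 and 12.7 TPM in vehicle_a. For both genes the groups overlapped, and the log2 changes of -0.17 (SE 0.26) and -0.35 (SE 0.22) did not pass. Col4a5, an alternative type IV chain encoded on the X chromosome, was called lower at a low level, with 0.342 and 0.424 TPM in vehicle_b and 1.23 and 1.67 TPM in vehicle_a (log2 -1.13). Col18a1, the source of endostatin and also a basement membrane component, had 15.2 and 16.7 TPM in vehicle_b and 12.3 and 18.5 TPM in vehicle_a. Its log2 change was 0.08 (SE 0.23).

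Among the fibril-associated (FACIT) collagens Col12a1 was called lower, with 2.05 and 2.42 TPM in vehicle_b and 11.7 and 17.7 TPM in vehicle_a (log2 -2.45, SE 0.25). Col19a1, a minor FACIT gene, had 4.94 and 4.36 TPM in vehicle_b and 7.04 and 8.46 TPM in vehicle_a and did not pass (adjusted p 0.0613 by limma). Col26a1, which lies outside the main classes, was called lower, with 1.82 and 1.13 TPM in vehicle_b and 7.24 and 15.8 TPM in vehicle_a (log2 -2.53). Col7a1 of the anchoring fibrils had 2.04 and 1.92 TPM in vehicle_b and 3.39 and 4.62 TPM in vehicle_a and did not pass (adjusted p 0.0564 by limma).

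The 2 genes called higher were both low. Col13a1, a transmembrane collagen known from the neuromuscular junction, had 2.95 and 2.39 TPM in vehicle_b against 0.623 and 0.299 TPM in vehicle_a (log2 1.74, SE 0.27, adjusted p 0.0279 by limma). Col8a1, a short-chain network collagen, had 2.76 and 3.49 TPM in vehicle_b against 1.42 and 1.44 TPM in vehicle_a (log2 0.90, SE 0.21, adjusted p 0.0471 by limma). The other transmembrane collagens went different ways without passing: Col17a1 had a log2 change of 1.00 and Col25a1 of -1.79. In total 19 collagen genes had both vehicle_b libraries below both vehicle_a libraries and 3 had them above, whereas 38.8% and 34.9% of all loci did so.

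**Figure D2:**
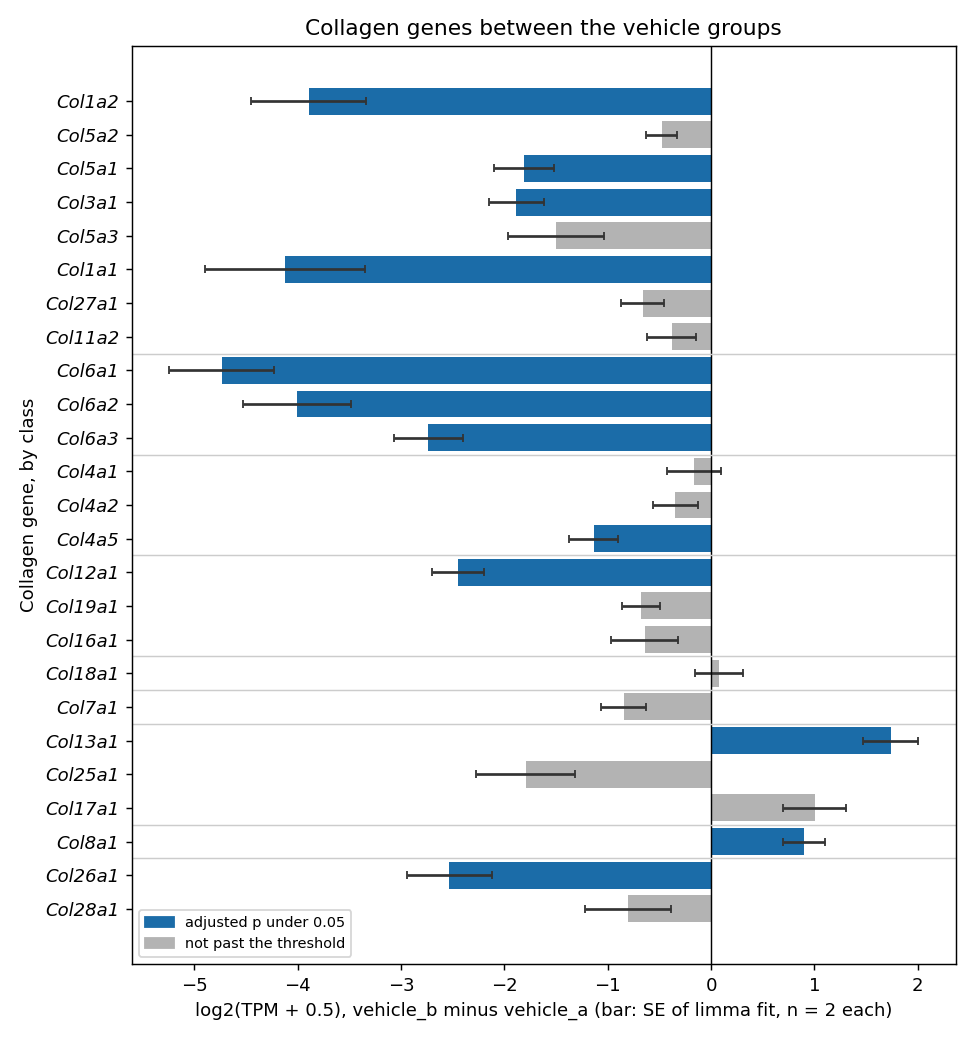
Difference of log2(TPM + 0.5), vehicle_b minus vehicle_a, for each tested collagen gene with its SE from limma (n = 2 libraries in each group), blue where the adjusted p was under 0.05. The bars of Col6a1, Col1a1, Col6a2 and Col1a2 reach -3.89 or lower, while those of Col4a1 and Col18a1 lie within 0.17 of 0.

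Summed over all 43 genes, collagen transcripts came to 230 and 272 TPM in vehicle_b and to 671 and 1172 TPM in vehicle_a. The means were 251 ± 29.4 TPM in vehicle_b and 921 ± 354 TPM in vehicle_a (SD, n = 2 each). An exact two-sided permutation test gave p = 0.33, the smallest that 2 against 2 libraries allow. The makeup differed as well. Col5a2 supplied 38.7% and 36.2% of the sum in vehicle_b and 21.4% and 10.1% in vehicle_a. Col1a2 supplied 5.76% and 10.5% in vehicle_b and 27.9% and 40.2% in vehicle_a. In both vehicle_b libraries Col5a2 was thus the leading collagen transcript, and in both vehicle_a libraries Col1a2 was.

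The isolations of 1 group also differed from each other. All 10 genes called lower in vehicle_b had a higher level in isolation 54 than in isolation 48, both in the BMP4 and in the vehicle_a libraries. Between isolations 77 and 75, 8 of these 10 were higher in 77, in BMP6 and in vehicle_b alike. Of the 13 tested collagen genes not called, 9 were higher in isolation 54 in BMP4 and 9 in vehicle_a. In isolation 77, 9 of these 13 were higher in BMP6 and 6 in vehicle_b. The vehicle libraries of these isolations also entered the test that called the 10 genes. The order of the isolations over all loci was not counted, so these counts do not show an order particular to collagen genes. The fold of isolation 54 over isolation 48 was 5.32 in BMP4 and 5.08 in vehicle_a for Col1a1, 3.44 and 3.0 for Col6a2, 3.34 and 2.91 for Col6a1 and 2.41 and 2.52 for Col1a2. It was also wide for the low genes Col25a1 (6.30 in BMP4 and 3.46 in vehicle_a) and Col28a1 (2.75 in BMP4 and 3.47 in vehicle_a), which were not called between the vehicles.

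Markers of differentiating muscle moved with these genes. All 12 listed markers were tested and 11 were called lower in vehicle_b, beside 11.3% of all loci. Their summed TPM was 738 to 1030 in vehicle_b and 6544 to 22153 in vehicle_a. Myog, the transcription factor of early differentiation, had 110 and 143 TPM in vehicle_b and 1301 and 2154 TPM in vehicle_a. Like type I and type VI collagen, the sum was higher in isolation 54 than in 48. Of 8 pericyte or smooth muscle markers 6 were tested and 4 were called lower, with sums of 69.4 to 75.6 TPM in vehicle_b and 785 to 1497 TPM in vehicle_a. Most of each sum came from Acta2 alone, with 52.5 and 59.3 TPM in vehicle_b and 719 and 1395 TPM in vehicle_a. Among the 8 markers Pdgfrb had 0.294 and 0.266 TPM in vehicle_b and 4.07 and 10.4 TPM in vehicle_a, while Rgs5 and Kcnj8 stayed below 1 TPM in every library.

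Of 12 fibroblast or fibro-adipogenic progenitor (FAP) markers 8 stayed below 1 TPM in every library. Pdgfra lay at 0.193 and 0.304 TPM in vehicle_b and at 0.291 and 0.329 TPM in vehicle_a, and Dcn, Lum, Dpt and Pi16 did not exceed 0.512 TPM in any library. Thy1 and Gsn were called lower in vehicle_b, and the list summed to 61.5 to 63.6 TPM in vehicle_b and 170 to 195 TPM in vehicle_a. The other tested ones did not pass: Osr1 had 3.37 and 8.22 TPM in vehicle_b and 2.22 and 1.83 TPM in vehicle_a, and Ly6a had 15.4 and 10.96 TPM in vehicle_b and 11.2 and 11.7 TPM in vehicle_a. Tnmd, a tendon cell marker, was listed at 0 in all libraries, while Scx, another one, had 54.7 and 41.1 TPM in vehicle_b and 67.9 and 77.7 TPM in vehicle_a. Fmod, on the same list, was called lower, with 0.066 and 0.061 TPM in vehicle_b and 3.15 and 6.51 TPM in vehicle_a. All 7 endothelial markers were below 1 TPM. Of 7 immune markers 5 were below 1 TPM, with Ptprc listed at 0, but Itgam lay between 10.9 and 17.1 TPM and Cd68 between 0.919 and 2.01 TPM over the 8 libraries, and neither was called between the vehicles. The part of these cell types in the collagen differences was not tested, and in bulk RNA fewer cells of a type and less RNA per cell cannot be told apart.

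**Figure D3:**
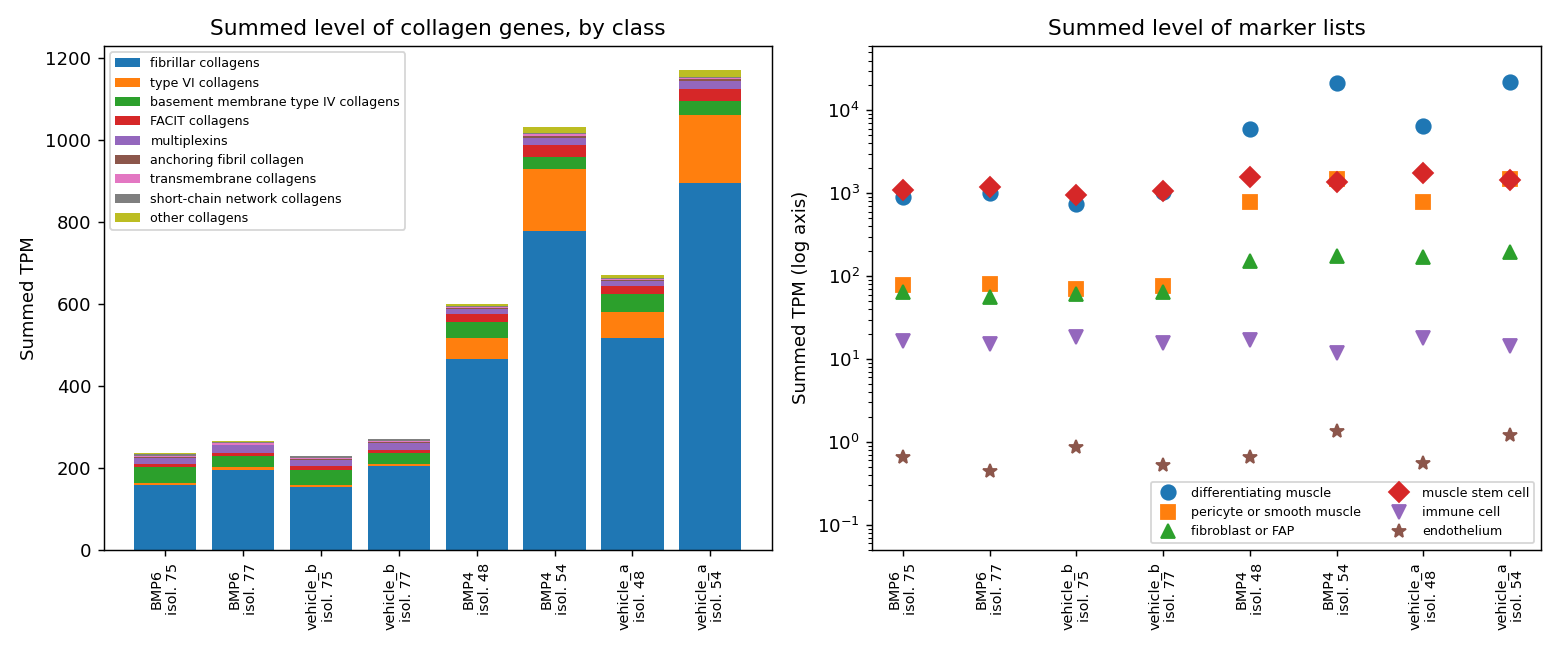
Left, summed TPM of the collagen genes by class in each library; right, summed TPM (log axis) of marker lists in the same libraries. Both the fibrillar and type VI segments and the differentiating muscle markers are larger in BMP4 and vehicle_a than in BMP6 and vehicle_b, and larger in isolation 54 than in isolation 48.

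Chains that assemble into 1 molecule were compared as ratios of TPM within a library. Type I collagen usually has 2 chains from Col1a1 for each chain from Col1a2, but Col1a2 was the more abundant transcript in every library. The ratio of Col1a2 to Col1a1 was 16.8 and 12.9 in BMP6, 14.0 and 15.7 in vehicle_b, 14.7 and 6.66 in BMP4 and 13.5 and 6.71 in vehicle_a. Isolation 54 alone, in BMP4 and in vehicle_a, stood below 7. Coverage per exon gave the same picture: the median over the 52 exons of Col1a2 was 12.5 to 15.5 times that over the 51 exons of Col1a1 in BMP6 and vehicle_b, 16.2 and 6.95 times in BMP4 and 14.0 and 6.62 times in vehicle_a. At the depth of these libraries Col1a1 was still covered by an estimated 180 reads or more in each.

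The type IV chains kept a narrow ratio. Col4a1 exceeded Col4a2 by 1.94 and 1.5 times in BMP6, 1.92 and 1.56 times in vehicle_b, 1.59 and 1.66 times in BMP4 and 1.47 and 1.57 times in vehicle_a. These are the genes whose shared start region is printed above, and their loci overlap by 22 bases.

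The balance of the type VI chains differed between the experiments. The ratio of Col6a3 to Col6a2 was 2.72 and 4.67 in BMP6, 2.87 and 3.34 in vehicle_b, 1.34 and 0.745 in BMP4 and 1.29 and 0.752 in vehicle_a. In BMP6 and vehicle_b Col6a2 was low, at 0.758 to 1.11 TPM and an estimated 104 to 165 reads. Col6a1 to Col6a2 was closer, at 1.73 and 2.05 in BMP6, 1.81 and 1.54 in vehicle_b, 2.40 and 2.33 in BMP4 and 2.45 and 2.38 in vehicle_a. Col5a2 to Col5a1 was 4.88 and 3.04 in BMP6, 4.83 and 3.10 in vehicle_b, 2.01 and 1.19 in BMP4 and 1.87 and 1.23 in vehicle_a. For these 3 ratios the libraries of isolations 75 and 77 did not overlap with those of isolations 48 and 54, with only 2 isolations on each side.

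**Figure D4:**
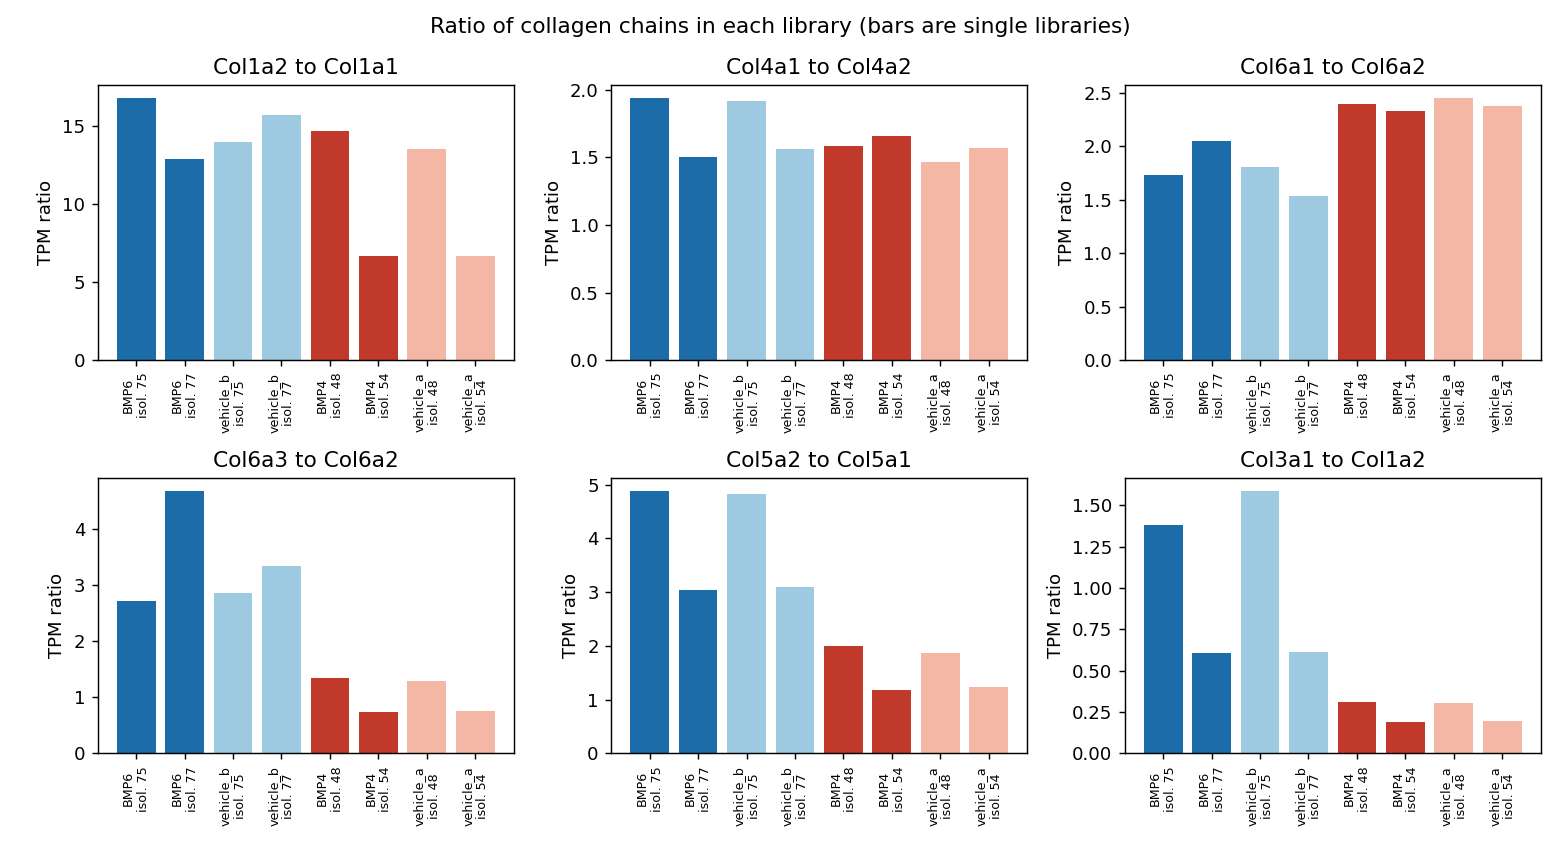
Ratio of the TPM of collagen chains in each library, 1 bar per library, with the pair named above each panel. Col1a2 exceeds Col1a1 in all 8 libraries (6.66 to 16.8), Col4a1 to Col4a2 stays between 1.47 and 1.94, and Col6a3 to Col6a2 and Col5a2 to Col5a1 are higher in isolations 75 and 77 than in 48 and 54.

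The enzymes and chaperones that make, secrete, trim, crosslink, bind and degrade collagen were read from lists of pathway genes. Of 42 tested genes, 26 were called between the vehicle groups, 25 lower in vehicle_b and 1 higher, beside 17.0% of all loci. Without either vehicle_b library 0 of the 42 were called.

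Of 14 genes of collagen hydroxylation and glycosylation, 6 were called lower and 1 higher. P4ha2, a catalytic subunit of prolyl 4-hydroxylase, had 6.91 and 6.81 TPM in vehicle_b and 30.1 and 32.6 TPM in vehicle_a (log2 -2.11, SE 0.14). P4ha1, the other main catalytic subunit, had 21.8 and 20.02 TPM in vehicle_b and 48.3 and 63.6 TPM in vehicle_a (log2 -1.39). P3h1 (log2 -1.26), P3h4 (log2 -1.04) and Plod1 (log2 -0.95) were lower too. P3h2, a prolyl 3-hydroxylase known to act on type IV collagen, was the 1 gene called higher, with 2.39 and 2.83 TPM in vehicle_b and 1.03 and 0.547 TPM in vehicle_a (log2 1.29, SE 0.27, adjusted p 0.0405 by limma).

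Of 11 folding and secretion genes 8 were called lower. Serpinh1, the collagen chaperone HSP47, had 359 and 359 TPM in vehicle_b and 779 and 809 TPM in vehicle_a (log2 -1.14, SE 0.11). Creb3l1, a transcription factor of secretory and collagen genes, had 6.72 and 8.47 TPM in vehicle_b and 62.9 and 62.2 TPM in vehicle_a (log2 -2.97, SE 0.16). Fkbp14 (log2 -1.97), Tmem38b (log2 -1.92), Fkbp10 (log2 -1.31) and Creb3l2 (log2 -1.23) were also lower. For Serpinh1 and Creb3l1 the isolations of 1 group were close together, unlike for type I collagen.

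Outside the cell, 3 of 5 procollagen processing genes were called lower. Pcolce, the enhancer of C-propeptide removal, had 6.60 and 4.68 TPM in vehicle_b and 35.1 and 48.5 TPM in vehicle_a (log2 -2.78). Adamts2, an N-propeptidase, had 0.353 and 0.270 TPM in vehicle_b and 3.03 and 5.85 TPM in vehicle_a (log2 -2.55), and Bmp1, the C-proteinase, had a log2 change of -0.93. Adamts14, another N-propeptidase, had 38.8 and 73.6 TPM in vehicle_b and 24.7 and 6.97 TPM in vehicle_a and did not pass (log2 1.97, SE 0.64).

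Of 5 crosslinking genes 4 were called lower. Loxl1 had a log2 change of -1.91, Loxl3 of -1.70, Lox of -1.11 and Loxl4 of -0.88, and all are lysyl oxidases. Both tested collagenases, Mmp14 (log2 -2.25) and Mmp2 (log2 -2.07), were lower. Of 5 tested receptors, Mrc2, an endocytic collagen receptor, and Ddr1, a collagen-binding tyrosine kinase, were called lower, with log2 changes of -1.71 and -1.60, whereas Ddr2 had 55.2 and 64.9 TPM in vehicle_b and 46.9 and 19.9 TPM in vehicle_a and did not pass. Of 5 tested collagen-binding matrix proteins, a list beyond the 42 genes, Fmod (log2 -3.17), Postn (log2 -2.32), Sparc (log2 -1.86) and Bgn (log2 -1.82) were called lower.

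The response to the 1 h pulse was small. No collagen gene was called after either ligand: 0 of 25 after BMP6, where 0.0118% of all loci were called, and 0 of 25 after BMP4, where 0.0237% were, by limma over all 8 libraries. At an unadjusted p under 0.05 the count was 0 for each ligand, beside 1.26% of all loci for BMP6 and 3.31% for BMP4. The fit over all 8 libraries keeps the differences between isolations in its SE, so small changes could hardly pass. For Col1a1 after BMP4 the SE was 0.97, against 0.083 when libraries were compared within an isolation. The comparison of BMP4 with vehicle_a shares the vehicle_a libraries with the comparison of the vehicles, and that of BMP6 shares the vehicle_b libraries.

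After BMP6 the collagen genes lay on both sides of 0, with 15 positive and 10 negative log2 changes, a median of 0.01 and a range of -0.17 to 0.13. Their summed TPM was 236 and 265 in BMP6 and 230 and 272 in vehicle_b. The most negative was Col6a2, with 0.758 and 0.852 TPM in BMP6 and 0.840 and 1.11 TPM in vehicle_b. The most positive was Col19a1, with 5.17 and 5.07 TPM in BMP6 and 4.94 and 4.36 TPM in vehicle_b. With the isolation as a block, which compares libraries within an isolation, 0 collagen genes were called, beside 0.148% of all loci. An unadjusted p under 0.05 was reached by 0 collagen genes, beside 5.72% of all loci.

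After BMP4 22 of 25 collagen genes had a negative log2 change, with a median of -0.14 against -0.02 over all loci. In isolations 48 and 54 taken singly, 21 and 20 of 25 were lower than in their own vehicle, beside 55.5% and 51.0% of all loci. Lower in both were 17 of 25, and so were 35.0% of all loci. For BMP6, 4 of 25 were lower in both isolations, and 27.1% of all loci. Col1a2 had 165 and 398 TPM in BMP4, against 187 and 471 TPM in vehicle_a. Col1a1 had 11.2 and 59.7 TPM in BMP4, against 13.8 and 70.2 TPM in vehicle_a. Within each isolation both were lower after BMP4, by 0.18 to 0.29 on the log2 scale, while the libraries of BMP4 and vehicle_a overlapped.

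With the isolation block 0 of 25 collagen genes were called for BMP4, beside 0.633% of all loci called, and 8 reached an unadjusted p below 0.05, as did 20.3% of all loci. Col3a1 came closest to the threshold (log2 -0.20, SE 0.05, adjusted p 0.151 by limma). A fit of estimated reads with voom and the block, chosen after seeing the data, called 5 of 25, all lower, where 6.15% of all loci were called and 2.67% called lower. They were Col1a1 (log2 -0.26, SE 0.04, adjusted p 0.0227), Col1a2 (log2 -0.22, adjusted p 0.0352), Col5a3 (log2 -0.19, adjusted p 0.0369), Col3a1 (log2 -0.20, adjusted p 0.0401) and Col4a2 (log2 -0.21, adjusted p 0.047). Col3a1 had 51.7 and 76.6 TPM in BMP4 and 56.7 and 91.9 TPM in vehicle_a, and Col4a2 had 14.7 and 10.5 TPM in BMP4 and 16.5 and 12.7 TPM in vehicle_a. The calls for BMP4 thus depend on the fit.

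The other BMP4 values did not pass in any of these fits. Col6a1 had 26.0 and 86.9 TPM in BMP4 and 32.7 and 94.9 TPM in vehicle_a, a log2 change of -0.22. Col26a1 had 6.06 and 13.5 TPM in BMP4 and 7.24 and 15.8 TPM in vehicle_a, a log2 change of -0.23. Col25a1, at -0.23, had changes of -0.48 in isolation 48 and 0.02 in isolation 54, and Col27a1, at -0.22, of -0.41 in isolation 48 and -0.02 in isolation 54. The highest was Col13a1, with 0.738 and 0.412 TPM in BMP4 and 0.623 and 0.299 TPM in vehicle_a, a log2 change of 0.17.

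**Figure D5:**
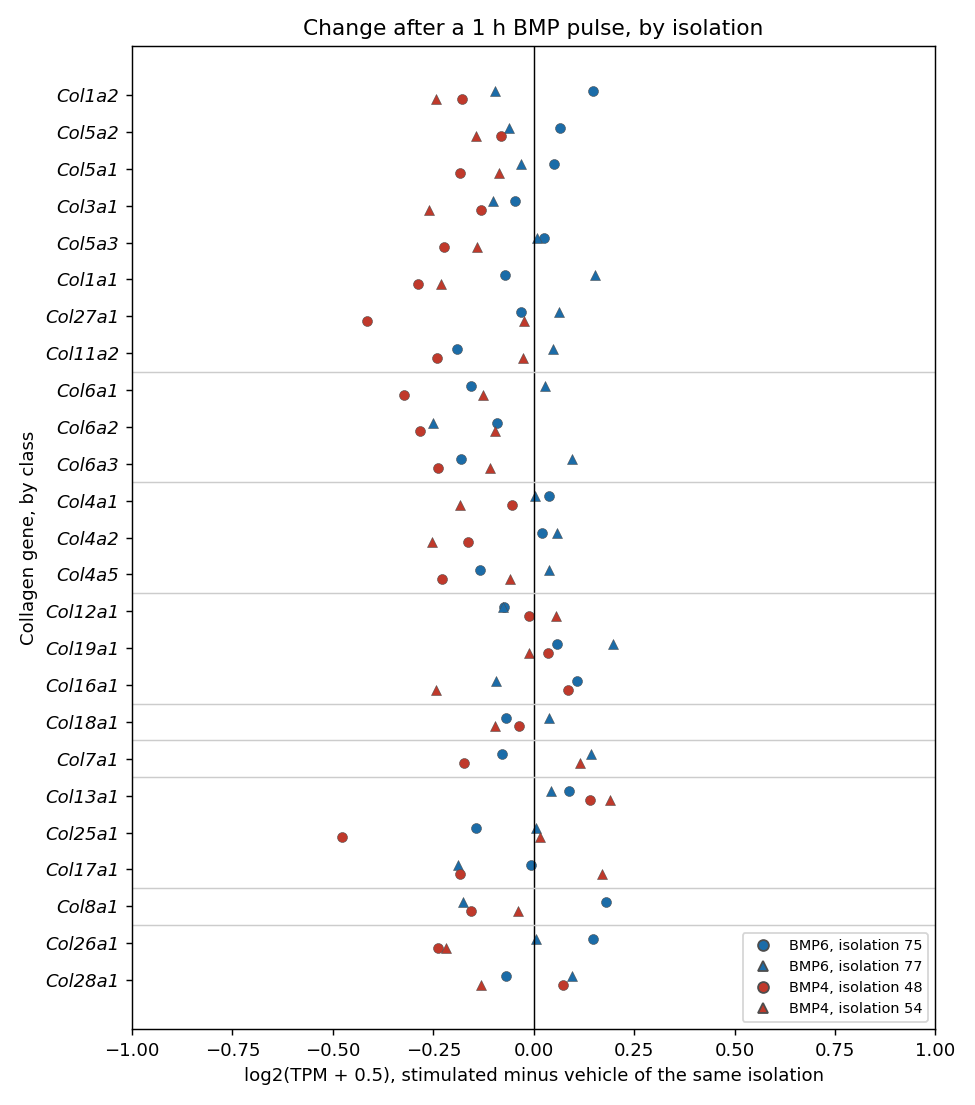
Difference of log2(TPM + 0.5) between the stimulated and the vehicle library of the same isolation for each tested collagen gene, blue for BMP6 and red for BMP4, circles for isolations 75 and 48 and triangles for 77 and 54. The BMP6 points lie on both sides of 0, and most BMP4 points lie below it, with none past 0.48 in either direction.

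The ligands were compared through the difference of their responses. Each ligand was given in its own experiment and to its own isolations. A difference of the responses therefore cannot be assigned to the ligand rather than to the experiment. The difference was positive, that is, BMP6 above BMP4, for 22 of 25 collagen genes. Its median was 0.12, against 0.01 over all loci. It was called for 0 of 25 by limma, as for 0.0% of all loci. With the isolation block 2 of 25 reached an unadjusted p below 0.05, where 13.3% of all loci did, and no adjusted p was smaller than 0.348, so a difference between the ligands was not shown for any collagen gene. The mean of both responses called 0 of 25 collagen genes without the block (0.071% of all loci) and 0 with it (0.674% of all loci).

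Among the 42 pathway genes, 1 passed after a pulse in the fit of log2(TPM + 0.5) with the block, while voom with the block called 7 for BMP4, 3 higher and 4 lower, beside 6.15% of all loci. Ddr1, the collagen receptor kinase, had 64.3 and 64.6 TPM in BMP6, against 41.0 and 41.5 TPM in vehicle_b. With the block it rose after BMP6 by a log2 change of 0.64 (SE 0.04, adjusted p 0.0302 by limma) and in the mean of both responses by 0.47 (adjusted p 0.0114 by limma). Ddr1 had 142 and 171 TPM in BMP4 and 120 and 133 TPM in vehicle_a, which did not pass for BMP4 alone. Without the block 0 of 42 pathway genes were called for BMP6 or BMP4.

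Some values carry limits of counting. Reads were counted without a strand option, so the antisense locus Gm13372 within Col5a1 (mean 1.89 TPM), Gm7775 within Col18a1 (0.958 TPM) and, on the same strand, Gm20485 within Col26a1 (2.09 TPM) may share reads with their collagen gene. Col10a1, at a mean of 0.137 TPM, overlaps the antisense gene Nt5dc1 (4.26 TPM). Most of Col18a1 came from 1 of 3 transcripts, with 82.6% to 99.2% of its TPM over the 8 libraries, whereas Col6a3 was divided between a transcript of 10106 nt (20.2% to 60.9%) and one of 9020 nt (39.1% to 79.8%).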

How the data were processed

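Per the labels' protocols, the authors made stranded poly(A) libraries from 500 ng RNA of 8 cultures and read 50 nt single ends. The submitters' processing notes name GRCm39, STAR 2.7.11a and SAMtools 1.17. Per the file headers, TPM and FPKM values and coverage signal come from the authors' run of StringTie 2.2.1 on a merged annotation without a strand option. TPM are shares of a library. The deposited TPM table matched the libraries' own tables in all 55223 rows (tolerance 1e-05). Depth is coverage times length over read length. An interval from it would cover counting error only, and the spread between isolations limits the precision.

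Values were taken as log2(TPM + 0.5), a scale that understates changes of low genes. They were tested with limma 3.58.1 (R 4.3.3) with a trend, over the 16908 loci that averaged 0.5 TPM or more. A check of the fit on simulated data took its spread from vehicle_b alone, so it does not cover the wider spread of vehicle_a. BMP comparisons used all 8 libraries and 4 group means. The vehicles were compared with their own 4 libraries, because libraries of 1 isolation deviate together. Isolation numbers in the labels pair the libraries: their deviations correlated at 0.707 across loci for isolations 48 and 54 and at 0.455 for 75 and 77. Across the tested collagen genes they correlated at 0.966 and 0.936. The blocked fit has the isolation as a fixed term. Adjusted p values are Benjamini-Hochberg values over all loci, with a threshold of 0.05, and sums had an exact permutation test in SciPy 1.17.1. Replicates differed beyond sampling noise (chi-square 34.2 to 237.6 per gene). The labels do not name separate mice, so p values measure the spread between isolations. With the block this is the spread of the difference between the 2 libraries of an isolation.

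The members, gene lists and tests were chosen with earlier results of these data known. Named were the 12 collagen genes of highest mean TPM, all called in any comparison, the 6 largest changes per comparison, and up to 6 called genes per pathway list. The alternatives changed the pseudocount, filter, scaling, unit, fit and libraries.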

Additional observations from a re-analysis of the deposited data

How the results depend on the processing

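Between the vehicles, the 12 collagen calls became 0 of 40 tested when no filter on low values was used, where 0 of 31741 loci and 0 of 51 pathway genes were called by limma (7823 loci at an unadjusted p under 0.05). The cause was not tested. Leaving out 1 library in turn gave 0 to 16 collagen calls and 0 to 31 pathway calls. The other settings called 9 to 15 collagen genes and 22 to 32 pathway genes, where the main counts were 12 and 26. The filter at 2 TPM, which leaves 17 collagen genes, moved their median log2 change to -1.81, against -0.85. On the same 25 genes it was -1.32 with a pseudocount of 0.1, -0.55 with a pseudocount of 2 and -1.43 with voom on estimated reads, settings tried for the median after seeing the data. Median centring shifted the median of all loci to 0.09 and left that of the collagen genes at -0.74. With 1 vehicle library left out, Col4a1 ranged from -0.50 to 0.16 on the log2 scale, turning positive without vehicle_b replicate 2, and Col18a1 from -0.21 to 0.36, turning negative without vehicle_a replicate 1. Col5a3, which was not called, ranged from -2.19 without vehicle_b replicate 2 to -0.81 without vehicle_b replicate 1.

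For the BMP comparisons, the fit with the replicate block called 0 collagen genes, and 1 pathway gene (Ddr1) for BMP6 and 1 for the mean of both responses, also in voom with the block. Leaving out 1 library or isolation gave 0 to 1 pathway calls for each of these and 0 collagen calls. Voom with the block, chosen after seeing the data, called 5 collagen and 7 pathway genes for BMP4. It was the 1 setting that called any collagen gene there, and the cause was not tested. Without the block, leaving out a library unbalances the isolations: the BMP4 log2 change then ranged from -1.44 to 0.92 for Col1a1, from -0.88 to 0.45 for Col1a2, from -0.54 to 0.15 for Col3a1, from -0.44 to 0.022 for Col4a2, from -0.37 to 0.0039 for Col5a3 and from -0.78 to 0.32 for Col26a1. The summed collagen TPM kept the sign of its change for each comparison under both alternatives.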
